A study of Mus musculus with 9 samples.

Results

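The genes described here start and brake blood clotting and control the protease plasmin, which dissolves clots. They are 9: the clotting trigger F3 and its inhibitor Tfpi, the protein C pathway receptors Thbd and Procr, the plasminogen activators Plau and Plat, the urokinase receptor Plaur, the inhibitor Serpinb2 and the matrix protein Thbs1. Members were all probe sets that the array annotation gives to one of these symbols alone, which made 15 of the 45101 probe sets on the array and 9 of 18193 genes. Another probe set that the annotation shares between Thbs1 and a second gene was left out. Of the 9 genes, 8 passed the filter on low signal and were tested. Plau did not.

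The series measured mRNA in the skin of C57BL/6 mice 6 h after a compound was put on the ear, with 3 arrays for each of 3 treatments. DNFB (dinitrofluorobenzene), which reacts with proteins and is widely used to provoke contact allergy, was the allergen. BAC (benzalkonium chloride), a cationic detergent and preservative, was the irritant, and the control was the vehicle, acetone with olive oil. DNFB and BAC were applied to right ears and vehicle to left ears, so side and treatment cannot be told apart, and the sources used here give no dose. Arrays are numbered within a treatment, but no label says that they came from separate animals, so the p-values rest on a spread that may be technical.

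Tissue factor, encoded by F3, starts clotting when it meets factor VII from the blood; in skin it is carried by keratinocytes and by cells around vessels. The inhibitor TFPI stops that step, and thrombin bound to thrombomodulin (Thbd) activates protein C, held on the endothelial protein C receptor (Procr), which brakes clotting. Plasminogen is turned into plasmin by urokinase (Plau), which acts at the cell surface on its receptor (Plaur), and by tissue plasminogen activator (Plat). SerpinB2, also called plasminogen activator inhibitor 2, inhibits both activators and is abundant in epidermis. Thrombospondin 1 (Thbs1) is an adhesive protein of platelet granules and wounded tissue.

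Values are MAS5 signals, probe set intensities on a linear scale. Median signal per array lay between 71.2 and 86.3, and arrays carry no read depth, so their number limits the precision. All 10 markers of epidermal keratinocytes lay above the 40th percentile in all 9 arrays. In DNFB replicate 2 the 3' over 5' ratio of the Gapdh control probe sets, which goes up as RNA degrades, was 1.36. In the other 8 arrays it was 0.841 to 0.943. The members that passed without DNFB replicate 2 numbered 7, 7 and 4 in the 3 comparisons, as with all arrays. Genes that passed between the compounds then numbered 608, beside 961. Gapdh gave 0.856 to 0.880 with the vehicle and 0.917 to 0.932 with BAC. Actin gave 1.05 to 1.10 with the vehicle, 1.18 to 1.22 with BAC and 1.09 to 1.28 with DNFB. On neither control did BAC and vehicle arrays overlap. What this shift did to the BAC results was not tested. Differences are in log2(signal + 16), where 1 is a doubling for bright genes and less is recorded for dim ones, with a standard error (SE). They were tested with limma, with p-values adjusted by the Benjamini-Hochberg method over all 14122 tested genes and a threshold of 0.05.

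After DNFB, 5 of the 8 tested members rose, 2 fell and Tfpi did not pass. After BAC, 7 rose and none fell, with Tfpi again the exception. Over all tested genes, 13.8% passed after DNFB (6.76% higher, 7.08% lower) and 14.2% after BAC (6.59% higher, 7.64% lower). Groups of arrays did not overlap for 7 of 8 members after DNFB, 5 of them higher and 2 lower, beside 30.9% of all tested genes (15.2% higher, 15.6% lower). After BAC they did not overlap for 7 of 8 members, all higher, beside 34.1% of all tested genes (14.9% higher, 19.2% lower). The median log2 change of the tested members was 0.74 after DNFB and 0.80 after BAC, where all tested genes had medians of 0.00 and -0.03. Both comparisons use the same 3 vehicle arrays. When the compounds were compared directly, Procr was higher with DNFB, Serpinb2, F3 and Thbs1 were higher with BAC, and the other 4 did not pass. In that comparison 6.8% of all tested genes passed (3.14% higher with DNFB, 3.66% lower). Arrays of the 2 compounds did not overlap for 4 of 8 members, beside 25.2% of all tested genes (13.7% higher with DNFB, 11.4% lower). Without vehicle replicate 1 or without BAC replicate 2, the members that passed after BAC numbered 4. Without BAC replicate 3, the members that passed between the compounds numbered 3.

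**Figure D1:**
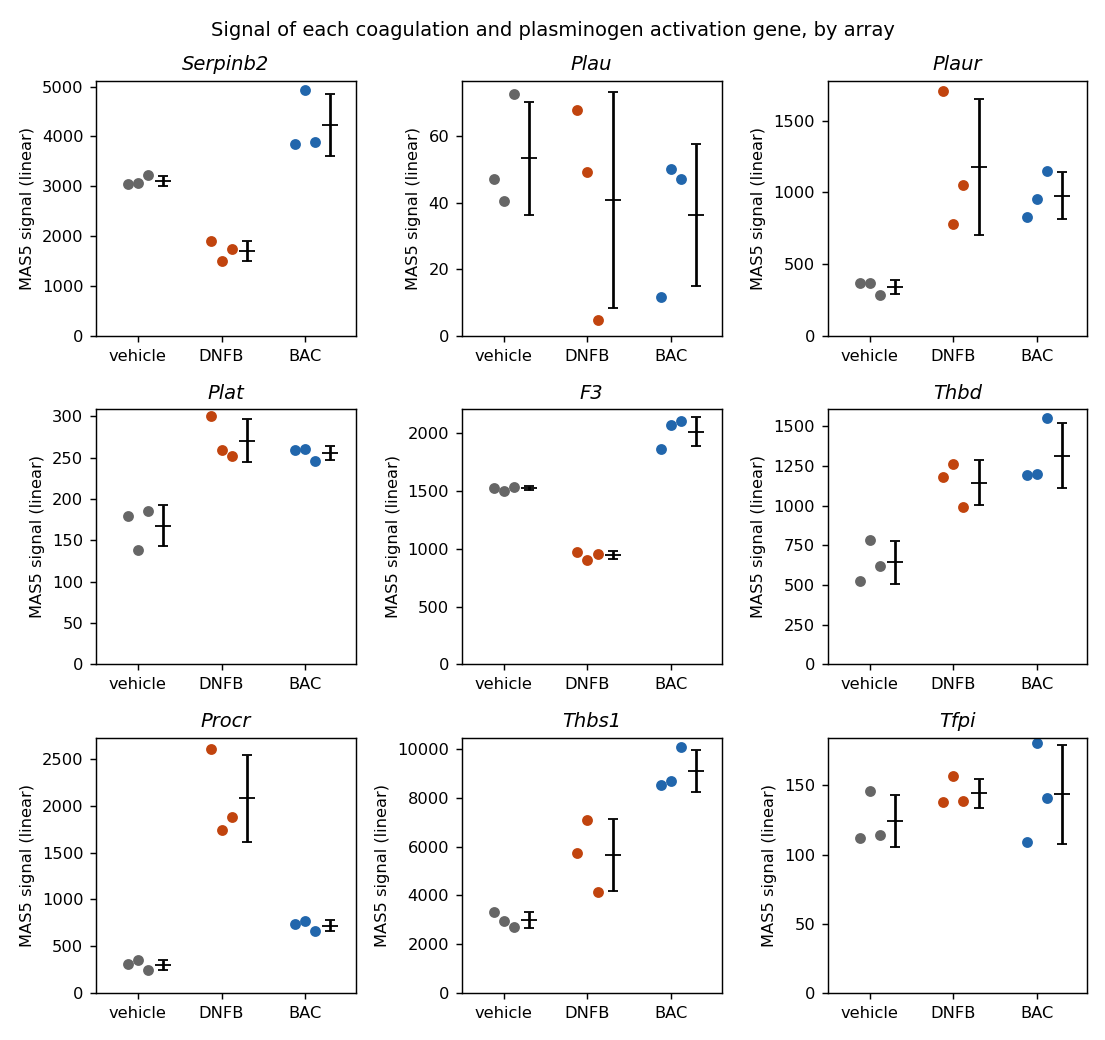
MAS5 signal (linear scale, each axis from 0) of the probe set that represents each gene, by treatment. Points are single arrays, and the bar beside them is the mean with its SD (n = 3). In the Serpinb2 and F3 panels the DNFB arrays lie below and the BAC arrays above every vehicle array, and in the Procr panel the DNFB arrays lie highest.

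The clotting trigger F3 (Entrez gene 14066) was lower after DNFB and higher after BAC. Vehicle replicates 1 to 3 gave signals of 1527, 1501 and 1536. DNFB replicates gave 971, 902 and 954, and BAC replicates gave 1864, 2069 and 2100. The 3 groups did not overlap, and the vehicle arrays lay close together. F3 fell after DNFB from a signal of 1521 ± 17.8 (SD, n = 3) to 942 ± 36.0, or -0.68 ± 0.10 (SE) in log2 units (limma adjusted p = 0.000233). It rose after BAC to 2011 ± 128, a log2 change of 0.40 ± 0.10 (adjusted p = 0.0139). DNFB minus BAC was -1.08 ± 0.10 (adjusted p = 7.09e-06). The fall after DNFB lay between -0.70 and -0.65 whichever array was left out. The rise after BAC was lost when certain single arrays were left out. It had an adjusted p of 0.0532 without vehicle replicate 1, 0.0581 without BAC replicate 2 and 0.0594 without BAC replicate 3, at log2 changes of 0.40, 0.38 and 0.36. Dividing each array by the median of all its probe sets made it 0.29 (adjusted p = 0.207).

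Because skin is a mixture, fewer cells of a type and less RNA per cell cannot be told apart. Of the 10 keratinocyte markers, 5 fell after DNFB and none rose; 3 fell after BAC. Their summed signal ran from 86540 to 98790 in the vehicle arrays, from 79860 to 92630 with DNFB and from 83220 to 89110 with BAC. The marker with the largest fall after DNFB was Trp63, the transcription factor of basal keratinocytes. It fell from 1676 ± 66.4 to 775 ± 40.1 after DNFB (log2 change -1.10 ± 0.11, adjusted p = 7.14e-06) and was 1611 ± 170 after BAC (-0.06, adjusted p = 0.764). Other markers differed from it. Krt1 (-0.92 and -0.66) and Dsg1a (-0.79 and -0.61) fell after DNFB and after BAC. Krt10 (0.33 and 0.21) and Krt14 (-0.21 and 0.15) did not pass against the vehicle. The part that keratinocytes had in the F3 and Serpinb2 results was not tested.

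The F3 inhibitor Tfpi (Entrez gene 21788) had 4 probe sets, and none passed in any comparison. The one that represents the gene gave signals of 112, 146 and 114 in the vehicle arrays, 138, 157 and 139 with DNFB, and 109, 180.5 and 141 with BAC, with overlap between all groups. Its log2 change was 0.20 after DNFB (95% interval -0.26 to 0.66, adjusted p = 0.622) and 0.17 after BAC (-0.29 to 0.63, adjusted p = 0.66). Without BAC replicate 2 the BAC difference was 0.01. Another Tfpi probe set was 157, 186 and 179 with BAC against 69.0, 97.4 and 129 with the vehicle, without overlap. Its log2 change of 0.76 ± 0.24 had an adjusted p of 0.0584 over the 29987 probe sets tested, of which 10.2% passed in that comparison, 10.4% after DNFB and 4.96% between the compounds. It was the lowest p of the 4 probe sets, at 0.00649 unadjusted.

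Both receptors of the protein C pathway rose after either compound. Procr (Entrez gene 19124) had the largest change of the members. Its signals were 306, 349 and 247 in the vehicle arrays, 2606, 1746 and 1881 with DNFB and 734, 768 and 657 with BAC. Every DNFB array lay above every BAC array, and every BAC array above every vehicle array. The mean rose from 301 ± 51.1 to 2078 ± 463 after DNFB, a log2 change of 2.72 ± 0.16 (adjusted p = 4.12e-08). After BAC it reached 719 ± 56.6 (1.23 ± 0.16, adjusted p = 7.95e-05). Procr was higher with DNFB than with BAC by 1.49 ± 0.16 (adjusted p = 2.81e-05). All 3 calls held in each of 19 other settings, where the DNFB change lay between 2.54 and 2.83.

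Thbd (Entrez gene 21824), the thrombin receptor of the pathway, was 523, 786 and 619 in the vehicle arrays, 1182, 1265 and 993 with DNFB, and 1192, 1203 and 1555 with BAC. Both treated groups lay above the vehicle, and they overlapped each other. It rose from 643 ± 133 to 1147 ± 140 after DNFB (log2 change 0.83 ± 0.15, adjusted p = 0.0019) and to 1316 ± 206 after BAC (1.02 ± 0.15, adjusted p = 0.000335). The difference between the compounds was -0.19 (95% interval -0.52 to 0.14, adjusted p = 0.513). Both receptors are best known from endothelium, and Thbd is also made by keratinocytes and myeloid cells. Of 10 endothelial markers, 1 rose after each compound, the cadherin gene Cdh5, by 0.95 ± 0.18 after DNFB and 0.77 after BAC, and none fell. Pecam1 had signals of 389 with the vehicle, 498 with DNFB and 510 with BAC, and did not pass (adjusted p = 0.185 and 0.129). The summed endothelial signal was 2863 to 3310 in the vehicle arrays, 3452 to 4452 with DNFB and 3075 to 3694 with BAC. Its part in the Procr and Thbd results was not tested.

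**Figure D2:**
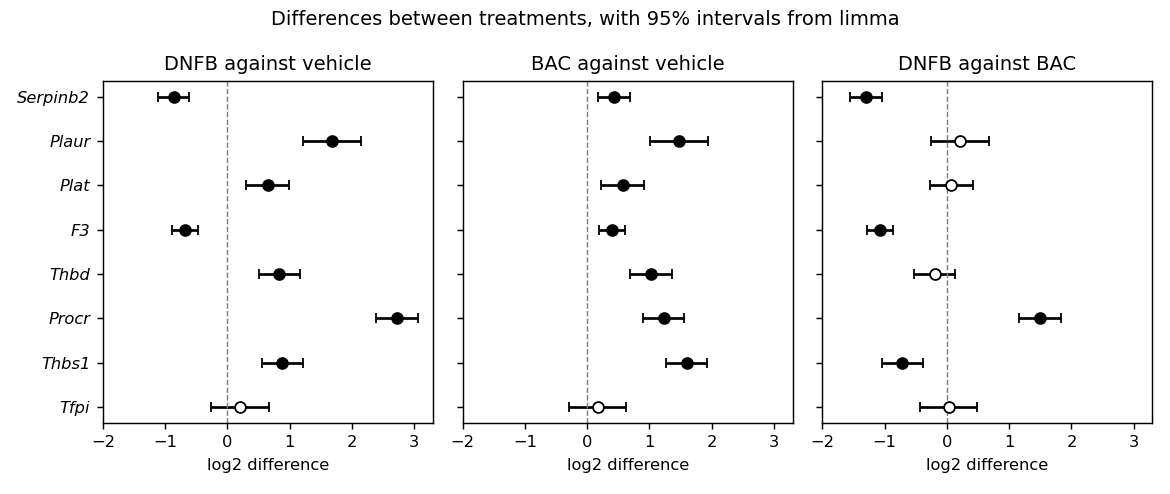
Difference in log2(signal + 16) for the 8 tested genes in each comparison, from limma over 9 arrays, with 95% intervals. Filled points passed an adjusted threshold of 0.05 and open points did not. F3 and Serpinb2 lie to the left of 0 for DNFB against vehicle and to the right for BAC against vehicle, and Tfpi spans 0 in all panels.

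Among the plasminogen activators, Plau (Entrez gene 18792) was near the low end of the array and Plat was moderate. Plau, the urokinase gene, had 2 probe sets. The brighter gave 47.1, 40.3 and 72.5 with the vehicle, 67.9, 49.3 and 4.91 with DNFB and 11.8, 50.1 and 46.9 with BAC. Its signal exceeded the 40th percentile of the array in 2 of 9 arrays and that of the dimmer probe set in 1, so neither was tested. Without the filter, its change was -0.49 ± 0.51 after DNFB and -0.48 ± 0.51 after BAC (adjusted p = 0.654 and 0.631). No urokinase change was detectable at this signal.

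Plat (Entrez gene 18791), tissue plasminogen activator, gave 180, 139 and 185 with the vehicle, 300.1, 259 and 251 with DNFB, and 259, 261 and 246 with BAC. Both treated groups lay above the vehicle arrays. It rose after DNFB by 0.64 ± 0.16 (adjusted p = 0.0147) and after BAC by 0.57 ± 0.16 (adjusted p = 0.0286), to 270.3 ± 26.1 and 255 ± 8.27. These calls were narrow. The DNFB call was lost without vehicle replicate 2 (0.53, adjusted p = 0.0588) and without DNFB replicate 1 (0.57, adjusted p = 0.0553). The BAC call was lost without vehicle replicate 1 (0.62, adjusted p = 0.0579) or vehicle replicate 2 (0.45, 0.109), and without BAC replicate 1 (0.56, 0.0682), 2 (0.56, 0.0833) or 3 (0.60, 0.0594). A second Plat probe set exceeded the 40th percentile in 1 of 9 arrays. Averaged with it, the change was 0.09 after DNFB (adjusted p = 0.866) and 0.63 after BAC (0.0987). The BAC call was also lost without the filter (0.57, 0.0508) and with arrays divided by the median of their probe sets (0.47, 0.0866).

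The urokinase receptor gene Plaur (Entrez gene 18793) rose after both compounds. Its signals were 367, 371 and 283 with the vehicle, 1705, 782 and 1048 with DNFB, and 827, 955 and 1151 with BAC. DNFB replicate 1 was the highest array, and both treated groups lay above every vehicle array. The mean rose from 341 ± 49.8 to 1178 ± 475 after DNFB (log2 change 1.68 ± 0.22, adjusted p = 8.81e-05) and to 978 ± 164 after BAC (1.48 ± 0.22, adjusted p = 0.000271). The compounds differed by 0.20 (95% interval -0.26 to 0.67, adjusted p = 0.638), and by -0.10 without DNFB replicate 1. Plaur is carried by neutrophils and monocytes as well as by migrating keratinocytes. Of 7 neutrophil markers 5 rose after DNFB and 6 after BAC, and none fell. Their summed signal was 1263 to 5731 in the vehicle arrays, 10900 to 20500 with DNFB and 19440 to 28170 with BAC. Most of that sum came from S100a8 and S100a9. Their means were 1172 and 1145 with the vehicle, 6587 and 6493 with DNFB, and 10280 and 10420 with BAC. In the vehicle arrays S100a8 was 487, 2565 and 464. The markers that did not pass were Cxcr2 after DNFB (0.51, adjusted p = 0.215) and Ngp after DNFB (0.12, 0.848) and BAC (0.68, 0.159). Of 9 monocyte and macrophage markers 4 rose after each compound, with summed signals of 10770 to 12510, 13680 to 15170 and 16050 to 16880. The part of these cells in the Plaur result was not tested.

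Serpinb2 (Entrez gene 18788), the inhibitor of the activators, went the way of F3. Its signals were 3042, 3062 and 3219 with the vehicle, 1899, 1494 and 1734 with DNFB, and 3856, 4939 and 3893 with BAC, and the groups did not overlap. It fell after DNFB from 3107 ± 96.9 to 1709 ± 204 (log2 change -0.86 ± 0.12, adjusted p = 0.000151) and rose after BAC to 4229 ± 615 (0.43 ± 0.12, adjusted p = 0.0232). DNFB minus BAC was -1.30 ± 0.12 (adjusted p = 7.09e-06). The fall after DNFB held in 19 other settings, between -0.96 and -0.77. Leaving out vehicle replicate 1 (0.42, adjusted p = 0.0817), vehicle replicate 2 (0.42, 0.0553) or BAC replicate 2 (0.32, 0.124) ended the call after BAC. It did not pass either without the intensity trend (0.43, 0.0943), after quantile normalization (0.35, 0.0693) or with arrays divided by the median of their probe sets (0.33, 0.153).

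Thbs1 (Entrez gene 21825) rose after both compounds and more after BAC. Its brighter probe set gave 3338, 2962 and 2701 with the vehicle, 5754, 7075 and 4129 with DNFB, and 8512, 8705 and 10089 with BAC, in groups that did not overlap. The mean rose from 3000 ± 320.0 to 5653 ± 1476 after DNFB (log2 change 0.88 ± 0.16, adjusted p = 0.00127) and to 9102 ± 860.4 after BAC (1.60 ± 0.16, adjusted p = 5e-06). DNFB minus BAC was -0.72 ± 0.16 (adjusted p = 0.0119). Without BAC replicate 3 this difference was -0.64 (adjusted p = 0.0523), without the intensity trend its adjusted p was 0.0967, and with arrays divided by the median of their probe sets it was -0.63 (0.0592). The second probe set moved the same way, by 0.87 ± 0.20 after DNFB and 2.08 ± 0.20 after BAC, with DNFB minus BAC at -1.20 ± 0.20 (adjusted p over probe sets 0.00227). With its groups at 956 ± 91.8, 1856 ± 728 and 4083 ± 283, it too had no overlap between them. Thbs1 is made by platelets, keratinocytes, fibroblasts and monocytes. Platelets store Thbs1. Of 8 platelet genes tested, 1 (Ppbp, tested only because of the treated arrays) rose and 1 (Gp1bb) fell after DNFB. After BAC 1 (Gp1bb) fell. The others include Pf4 and Itga2b, which did not pass after DNFB (0.18, adjusted p = 0.22, and 0.16, adjusted p = 0.573) or after BAC (-0.11, adjusted p = 0.49, and 0.20, adjusted p = 0.443). The part of platelets in the Thbs1 result was not tested.

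Patterns over the 9 arrays were compared by the root mean square difference between genes in log2 units, each gene taken relative to its vehicle mean. F3 was the second most alike of 14121 genes to Serpinb2, at 0.15, after Zfp750 (0.12), a transcription factor of epidermal differentiation, and before Bnc1 (0.16), a zinc finger protein of basal keratinocytes. The next closest pair of members, Plat and Thbd, differed by 0.39. The genes most alike to F3 were Elovl5, Fgfbp1 and Irf2bp2 (0.10 to 0.12). Procr was most alike to Maff (0.19), a small MAF transcription factor, then to the stress genes Ppp1r15a (0.31) and Osgin1 (0.36). Plaur was most alike to Timp1 and Tnfrsf12a, each at 0.19, and Gja1 (0.23). Thbs1 was most alike to Angpt2, Kcne4 and S1pr3 (0.21 to 0.22), Thbd to Sat1, Litaf and St6galnac4 (0.13 to 0.16), and Plat to Pmepa1, Rheb and Arf4 (0.10 to 0.11). These distances describe the arrays and carry no test.

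**Figure D3:**
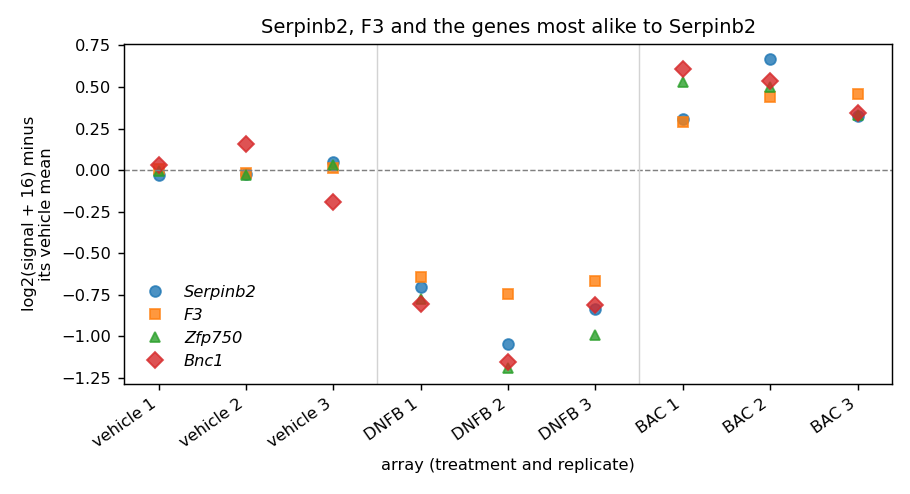
Value of log2(signal + 16) in each of the 9 arrays minus the gene's own vehicle mean, for Serpinb2, F3 and the genes Zfp750 and Bnc1. In the DNFB arrays all 4 genes lie below -0.6 and in the BAC arrays all lie above 0.25.

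Upstream sequences were read to set F3, Serpinb2, Plaur and Procr side by side: F3 and Serpinb2 fell after DNFB and rose after BAC, Procr rose most after DNFB, and Plaur rose after both with no difference between them that passed. They are RefSeq sequences in GRCm38.p6, the 250 bases before an annotated start, on the plus strand, and 5 of the 9 members were in the table. The regions are chr3:121723287-121723536 for F3, chr1:107511173-107511422 for Serpinb2, chr7:24462233-24462482 for Plaur and chr2:155750967-155751216 for Procr. Capitals mark matches on either strand to an AP-1 site (TGAGTCA), an EGR site (GCGGGGGCG) or an antioxidant response element, ARE (TGACNNNGC).
F3: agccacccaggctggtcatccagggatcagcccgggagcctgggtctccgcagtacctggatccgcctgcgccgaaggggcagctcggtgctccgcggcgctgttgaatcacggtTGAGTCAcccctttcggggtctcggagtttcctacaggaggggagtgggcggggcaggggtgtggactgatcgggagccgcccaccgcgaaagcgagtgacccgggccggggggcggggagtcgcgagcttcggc
Serpinb2: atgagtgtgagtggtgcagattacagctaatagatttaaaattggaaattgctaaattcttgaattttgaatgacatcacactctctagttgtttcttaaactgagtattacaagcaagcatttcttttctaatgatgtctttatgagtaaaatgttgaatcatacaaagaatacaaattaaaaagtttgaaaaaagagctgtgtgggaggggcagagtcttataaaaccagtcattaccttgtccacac
Plaur: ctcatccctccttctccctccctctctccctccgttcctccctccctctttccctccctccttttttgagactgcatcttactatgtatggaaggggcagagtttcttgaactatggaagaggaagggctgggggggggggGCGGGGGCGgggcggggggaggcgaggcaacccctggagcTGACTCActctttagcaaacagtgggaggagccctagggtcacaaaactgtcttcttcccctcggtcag
Procr: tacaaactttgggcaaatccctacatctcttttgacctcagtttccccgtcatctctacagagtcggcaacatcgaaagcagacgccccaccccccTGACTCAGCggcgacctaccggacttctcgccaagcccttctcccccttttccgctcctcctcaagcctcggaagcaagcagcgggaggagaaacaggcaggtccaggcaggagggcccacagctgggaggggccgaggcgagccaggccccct

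An AP-1 match stood in the F3, Plaur and Procr sequences, at 135 to 129, 69 to 63 and 154 to 148 bases before the start. Of the 7 sequences of the 5 members, these 3 held one, and of 32851 promoter sequences of that length, 4.46%. The Tfpi sequences, which are not shown, held Sp and TATA matches but none to AP-1. In Procr the 9 bases of an ARE match (10.2% of promoters) began on the same base as the AP-1 match, so the matches overlap. Plaur also held an EGR match 109 to 101 bases before the start (2.57% of promoters) that overlaps GC-rich Sp matches (GGGCGG, 32.7% of promoters). F3 held Sp matches alone besides its AP-1 match. The Serpinb2 sequence had a TATA match (TATAAA, 12.4% of promoters) 29 to 24 bases before the start and none of the AP-1, ARE, EGR or Sp letters. Serpinb2 has a second annotated start, and the same TATA match stood 116 to 111 bases before that one. Its distance therefore depends on the start used. No match to a cyclic AMP response element (TGACGTCA) or an NF-kB site stood in the sequences of the 5 members. A match is a string of letters and was not measured as a binding site.

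**Figure D4:**
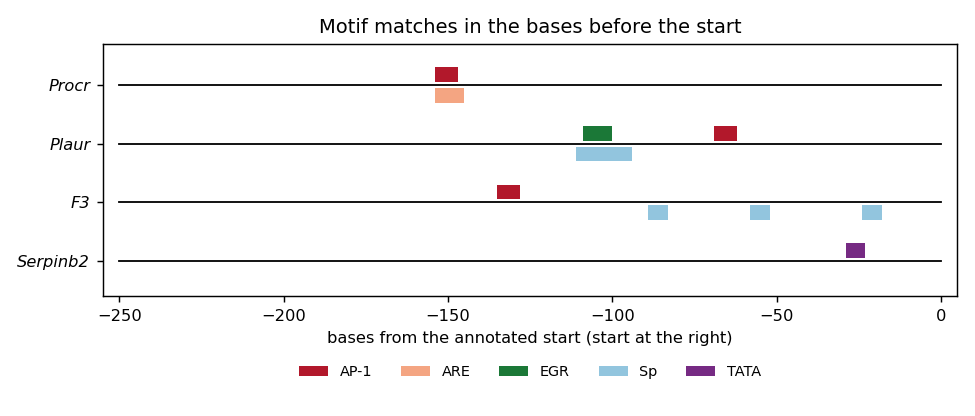
Matches to 5 motifs in the 250 bases before the annotated start of Procr, Plaur, F3 and Serpinb2, as distance in bases from the start. Coloured boxes are matches on either strand, with AP-1, EGR and TATA above the line and ARE and Sp below. AP-1 boxes stand in Procr, Plaur and F3, and Serpinb2 has only a TATA box near the start drawn. A second annotated Serpinb2 start and the Tfpi sequences are not drawn.

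Around these members, 54 other genes of the pathway were tested, of 78 listed and 69 with a probe set of their own. After DNFB 9 rose and 6 fell, and after BAC 3 rose and 3 fell; 3 were higher and 3 lower with DNFB than with BAC. Over all tested genes 13.8%, 14.2% and 6.8% passed in these comparisons. Ppbp, among the 9 that rose after DNFB, was tested only because of the treated arrays. Median log2 changes were 0.16 after DNFB and 0.09 after BAC, beside 0.00 and -0.03 over all tested genes. Of the 24 calls that the text below names by size, 8 held in all 19 other settings. That count includes the rise of Ppbp after DNFB, in spite of its limit from the filter.

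Among coagulation factors and fibrinogen genes, 2 of 12 tested rose after each compound and none fell. Fgl2, a membrane prothrombinase of macrophages and T cells, was 669, 1007 and 718 with the vehicle, 1140, 1120 and 1196 with DNFB, and 2490, 2925 and 2924 with BAC, with no overlap between groups. It rose by 1.80 ± 0.14 after BAC (adjusted p = 3.43e-07) and DNFB minus BAC was -1.26 ± 0.14 (adjusted p = 4.18e-05). Its rise of 0.54 ± 0.14 after DNFB (adjusted p = 0.0154) did not hold when DNFB replicate 3 (0.52, 0.0528), vehicle replicate 3 (0.48, 0.0719) or vehicle replicate 1 (0.43, 0.0893) was left out. With the mean of all Fgl2 probe sets that rise was 0.38 (0.0525). Vwf, the platelet-binding protein of endothelium, was 193, 206 and 169 with the vehicle and 288, 467 and 386 with DNFB, a rise of 0.93 ± 0.19 (adjusted p = 0.00365). With BAC it was 239, 178 and 240.4 (0.19, adjusted p = 0.561). F13a1, the fibrin-crosslinking factor XIII made by dermal macrophages, rose after BAC by 0.39 ± 0.10 (adjusted p = 0.019). This call was lost without vehicle replicate 1 (0.37, 0.0767), vehicle replicate 3 (0.35, 0.0721) or BAC replicate 3 (0.33, 0.083). The differences of Vwf (0.74, adjusted p = 0.0287) and F13a1 (-0.36, adjusted p = 0.0435) between the compounds were each lost without DNFB replicate 2 (0.58, 0.126, and -0.37, 0.0915), DNFB replicate 3 (0.72, 0.0924, and -0.40, 0.0719) or BAC replicate 2 (0.61, 0.127, and -0.41, 0.0747). That of F13a1 was also lost without vehicle replicate 1 (-0.36, 0.0688), DNFB replicate 1 (-0.32, 0.112), BAC replicate 1 (-0.38, 0.0893) or BAC replicate 3 (-0.31, 0.141). Of the protease-activated receptors that thrombin acts on, F2r differed by 0.31 after DNFB and 0.06 after BAC (adjusted p = 0.202 and 0.835), and F2rl2 by 0.15 and 0.21 (0.758 and 0.625).

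Of 5 anticoagulant genes, 1 rose after each compound. Serping1, which encodes the C1 inhibitor of the contact and complement systems, went from 3386 ± 175 to 5117 ± 396 with DNFB (0.59 ± 0.10, adjusted p = 0.000614) and to 4527 ± 212 with BAC (0.42 ± 0.10, adjusted p = 0.00865). With arrays divided by the median of their probe sets, its rise after BAC was 0.31 (adjusted p = 0.207). Of 11 genes for plasminogen, its inhibitors and its receptors, Itgb3 alone rose after DNFB (0.82 ± 0.25, adjusted p = 0.0444) and none passed limma's test after BAC, where 1 had an unadjusted p under 0.05. Itgb3 encodes an integrin subunit that binds fibrinogen and vitronectin. Its call was lost without vehicle replicate 1 (0.70, 0.161) or 3 (0.76, 0.133) and without DNFB replicate 1 (0.83, 0.0883), 2 (0.74, 0.144) or 3 (0.88, 0.075). The mean of all Itgb3 probe sets gave 0.43 (0.376). The call was also lost without the filter (0.0894), without the intensity trend (0.0841) and with arrays divided by the median of their probe sets (0.80, 0.0617).

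The clade B serpins, the intracellular family to which Serpinb2 belongs, fell in 5 of 10 cases after DNFB and rose in 1, with a median of -0.67. After BAC 2 fell and none rose, with a median of -0.38. The count after BAC depended on the probe sets used. With the mean of all probe sets of a gene, Serpinb5 (-0.55, adjusted p = 0.00189) and Serpinb8 (-0.66, 0.0113) also passed as lower after BAC. Serpinb7, which lies beside Serpinb2 on chromosome 1, fell after both compounds, from 2066 ± 154 to 1144 ± 71.2 with DNFB (-0.84 ± 0.10, adjusted p = 6.16e-05) and 1186 ± 65.4 with BAC (-0.79 ± 0.10, adjusted p = 0.000102). Unlike Serpinb2 it was therefore below the vehicle with BAC. Serpinb12 fell after BAC from 830.4 ± 165 to 376 ± 115 (-1.13 ± 0.20, adjusted p = 0.00124). Its fall after DNFB (-0.69, adjusted p = 0.0312) was lost without vehicle replicate 2 (-0.59, 0.103) or 3 (-0.62, 0.118) and without DNFB replicate 2 (-0.69, 0.0774) or 3 (-0.60, 0.116). Serpinb5, the keratinocyte protein maspin, fell after DNFB (-0.64 ± 0.11, adjusted p = 0.000817) and was lower with DNFB than BAC (-0.48, adjusted p = 0.0146). The latter call was lost without DNFB replicate 2 (-0.43, 0.0638), DNFB replicate 3 (-0.45, 0.0626) or BAC replicate 2 (-0.41, 0.0807). The mean of all Serpinb5 probe sets made that difference -0.21 (adjusted p = 0.225). It was also lost without the intensity trend (0.0952) and with arrays divided by the median of their probe sets (-0.39, 0.137). Serpinb8 fell by 0.71 after DNFB (adjusted p = 0.0192; without vehicle replicate 2 -0.56, 0.0791, and without DNFB replicate 2 -0.51, 0.0929). Serpinb3a (-0.92, adjusted p = 0.0361) was lost without any 1 of the 6 DNFB and vehicle arrays, with adjusted p from 0.058 to 0.14. Serpinb6a rose after DNFB by 0.45 (adjusted p = 0.00708), a call lost with arrays divided by the median of their probe sets (0.43, 0.0962) and without the intensity trend (0.0529). Its difference from BAC (0.35, adjusted p = 0.0478) held without vehicle replicate 2 alone, with adjusted p up to 0.175 without another array.

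Of 6 thrombospondins and their receptors, the relatives Thbs2, Thbs4 and Comp rose after DNFB by 0.53 ± 0.13, 0.55 ± 0.14 and 0.56 ± 0.14, and none of the 6 passed limma's test after BAC, with 0 at an unadjusted p under 0.05. For Thbs2 and Thbs4, BAC signals were 412 ± 27.6 and 1423 ± 136 beside 365 ± 39.9 and 1361 ± 142 with the vehicle. These rises did not hold without DNFB replicate 2 (0.48, adjusted p = 0.0592, for Thbs2, 0.41, 0.0758, for Thbs4 and 0.53, 0.0598, for Comp). Thbs2 was also lost without vehicle replicate 1 (0.45, 0.0869) and Thbs4 without vehicle replicate 3 (0.47, 0.0777). The mean of all Thbs2 probe sets gave 0.45 (0.164). Comp was also lost without vehicle replicate 1 (0.52, 0.0675), vehicle replicate 3 (0.52, 0.0665) or DNFB replicate 3 (0.49, 0.0718). Thbs4 was higher with DNFB than BAC by 0.49 (adjusted p = 0.048), with adjusted p up to 0.186, without DNFB replicate 2, when 1 array was left out. It held without vehicle replicate 2, vehicle replicate 3 or DNFB replicate 1. Of 9 fibroblast markers, which mark cells that make these proteins, 3 rose after DNFB and 1 after BAC, with summed signals of 63720 to 72610 with the vehicle, 80710 to 91050 with DNFB and 72770 to 83850 with BAC. Of 8 skeletal muscle markers 5 rose after DNFB and none after BAC, with summed signals of 30330 to 38350, 42210 to 51710 and 34290 to 50810. Of 6 tested pericyte and smooth muscle markers 3 rose after DNFB and 2 after BAC. Myh11, among the 3 that rose after DNFB, gave 45.0, 61.0 and 42.8 with the vehicle. It exceeded the 40th percentile in 7 of 9 arrays and was tested only because of the treated arrays. The part of these cells was not tested.

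Of 8 platelet genes tested, Ppbp rose and Gp1bb fell after DNFB, and Gp1bb fell after BAC. Ppbp, a chemokine precursor of platelet granules, was 37.1, 34.2 and 33.3 with the vehicle and 157, 235 and 144 with DNFB. It exceeded the 40th percentile in 5 of 9 arrays, none of them a vehicle array, so it was tested only because of the treated arrays. Its fitted log2 change of 1.91 ± 0.31 (adjusted p = 0.000594) depended on the pseudocount, at 2.29 with 1 and 1.28 with 64, and is no measure of the fold. Gp1bb, a subunit of the platelet receptor for von Willebrand factor, changed by -0.69 ± 0.18 after DNFB and -0.67 ± 0.18 after BAC (adjusted p = 0.0195 and 0.0227). The DNFB call was lost without vehicle replicate 1 (-0.65, 0.0786) or 2 (-0.65, 0.0588) and without DNFB replicate 1 (-0.54, 0.0786) or 2 (-0.67, 0.058). The BAC call was lost without vehicle replicate 1 (-0.64, 0.0869) or 2 (-0.64, 0.0692) and without BAC replicate 2 (-0.58, 0.0917) or 3 (-0.70, 0.0512). The mean of all Gp1bb probe sets gave -0.22 and -0.36 (0.406 and 0.149).

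**Figure D5:**
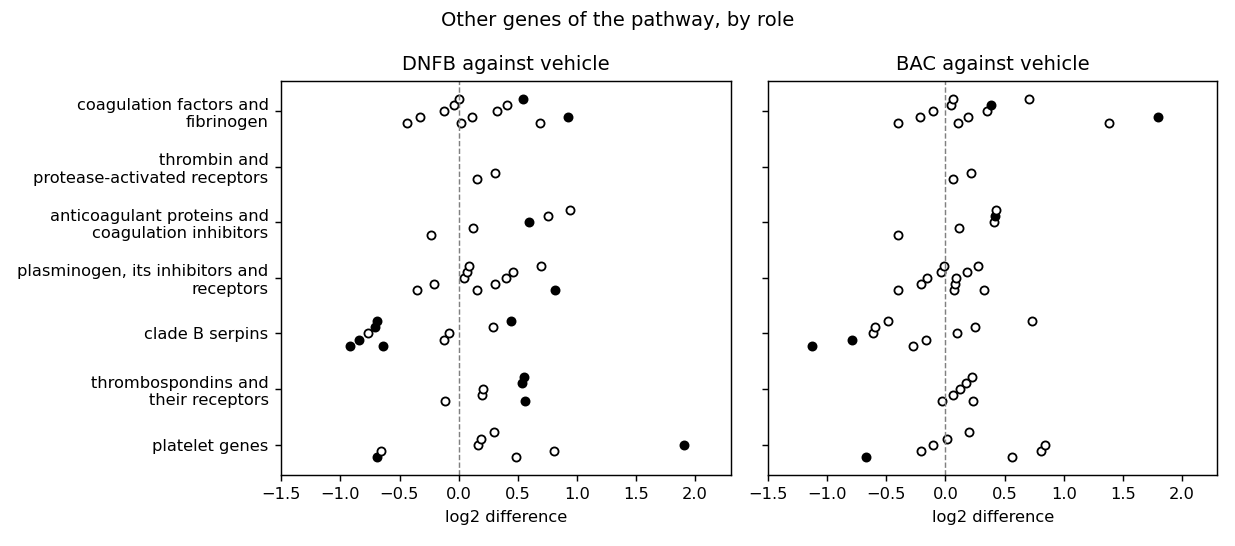
Difference in log2(signal + 16) from the vehicle for the 54 other tested genes of the pathway, grouped by role; each point is a gene. Filled points passed an adjusted threshold of 0.05. In the DNFB panel filled points lie to the left among clade B serpins and to the right among thrombospondins, and in the BAC panel Fgl2 lies farthest right.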

How the data were processed

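Total RNA of 9 ear skin samples was hybridised to Affymetrix arrays. Per the submitters' processing notes, the authors made the deposited intensities with MAS5 in the Affymetrix Expression Console. The sources used here name no version. Values were linear, with a mean of 250.001 in each array once the highest and lowest 2% of probe sets were left out. Groups and replicate numbers came from the titles.

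The platform annotation named the genes. Each gene took its probe set of highest mean log2, and it was tested if that probe set exceeded the array's 40th percentile in 3 or more of 9 arrays. Signals were used as log2(signal + 16). One limma model (limma 3.58.1, R 4.3.3; lmFit, eBayes with an intensity trend, two-sided) held all 9 arrays with a mean per treatment, and it was tested on simulated data. A second fit used all probe sets above the filter. With 3 arrays a group, exact permutation cannot give a p under 0.1 and was not run. Names in the text followed a rule: all members, up to 3 changed genes with the largest change per role and comparison, and the 3 genes most alike to each member past a moderated F test. Other genes named were picked with their values known. The members and lists were chosen with earlier results of these data known. Alternatives changed the pseudocount, filter, scaling, probe set summary, variance prior, block and arrays.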

Additional observations from a re-analysis of the deposited data

How the results depend on the processing

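Of the members' 18 calls, 13 stayed past the threshold in all 19 other settings, 9 of which left out 1 array. The rest were the rises of Serpinb2, F3 and Plat after BAC, of Plat after DNFB and the difference of Thbs1 between the compounds, and the cause was not tested. With arrays divided by the median of all probe sets, 4 members passed after BAC, and 581 genes passed between the compounds beside 961. That scaling moved the median of the tested genes after BAC to -0.13, and 33% of calls were then higher, beside 46.3%. With log2 values of the tested genes centred instead, a choice made after seeing the data, 60.2% of DNFB and 60.8% of BAC calls were higher, beside 48.8% and 46.3%, and the members' counts stayed at 7, 7 and 4. Without the intensity trend, 1202 genes passed after DNFB, beside 1955, and 402 between the compounds. With 1 array left out, 1249 to 1929 genes passed after DNFB, 1225 to 2148 after BAC (2009 with all arrays) and 513 to 999 between the compounds, and 6 to 7, 4 to 7 and 3 to 4 members. With a replicate block, 1874, 1939 and 860 genes and 7, 7 and 4 members passed, and no member's call changed, while F13a1, Serpinb6a and Thbs4 lost theirs between the compounds (adjusted p = 0.065, 0.0721 and 0.0588). The numbers were not taken as a pairing, since no label says that they mark a shared animal. The deviations of 1 of 9 same-numbered pairs of arrays correlated above 0.1, beside 2 of 18 other pairs. The highest correlations were 0.153 and 0.119. With 3 arrays a group, this check cannot exclude that animals were shared. Values that changed sign were all uncalled. Quantile normalization gave F13a1 -0.052 after DNFB, Serpinb6a -0.0047 after BAC and Gp1bb 0.0095 between the compounds. Arrays divided by the median of all probe sets gave Serpinb6a -0.0074 and Thbs4 -0.039 after BAC, and Serpinb7 0.035 and Gp1bb 0.067 between the compounds. The mean of all probe sets gave Plat -0.54, Tfpi -0.28 and Gp1bb 0.14 between the compounds. With 1 array left out, F13a1 ran from -0.017 to 0.079 after DNFB and Thbs4 from -0.023 to 0.12 after BAC. Between the compounds, Plaur ran from -0.10 to 0.46, Plat from -1e-04 to 0.12, Tfpi from -0.13 to 0.19 and Gp1bb from -0.19 to 0.14. Low signal limits Plau and the vehicle level of Ppbp.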
